A study of Saccharomyces cerevisiae with 116 samples.

Results

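The genes described here are 56 protein-coding genes of the budding yeast Saccharomyces cerevisiae whose products assemble the large (60S) ribosomal subunit. They were chosen by name from a list of large subunit assembly factors, by a rule that uses no measured value but with earlier results of these data known, and all 56 were found among the 6708 S. cerevisiae ORF rows of the table that also holds counts of added cells. The ribosomal RNA of the large subunit is transcribed in the nucleolus as part of a long precursor. Assembly factors bind this precursor in turn, fold it, cut and modify it, bring in ribosomal proteins and then leave, and the last of them travel with the particle through the nuclear pore and are released in the cytoplasm. In yeast these genes are expressed together with those of the small subunit processome, and many carry the promoter elements called PAC and RRPE. The deposited tables carry an annotation named PAC cluster for 49 of the 56, against 456 of all 6705 ORFs (6.8%) of the table without added cells. The 7 members without it are NOG1, MAK21, DBP2, DBP6, NOP16, IPI1 and MDN1. No promoter sequence was searched for PAC or RRPE here, so the annotation is not a count of motifs.

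The study asked how the transcriptome answers stress in cells that had stopped dividing and in cells that divide. Every library came from strain By4741, a MATa laboratory strain with deletions at HIS3, LEU2, MET17 and URA3, grown in rich YPD medium for 7 to 10 generations, and each state was 1 strain with no other allele. The stressed groups were cells with NaCl, sampled mostly at T30, or heat shock, sampled mostly at T10, and their T0 groups were the same state before the stress (the labels write time as T and a number, without a unit). The arrested states were alpha factor (25 µM for 2 h), the mating pheromone that holds MATa cells in G1, and nocodazole (10 µg/ml for 2 h, or 3.5 h in a separate set), a microtubule drug that holds cells in mitosis. A further state was cycloheximide, an inhibitor of translation elongation, at levels labelled 0.1 and 0.2 with no unit. Asynchronous cells, with none of these agents, were the state they are set against. Salt in asynchronous and alpha factor cells was measured in 3 replicates per group with Schizosaccharomyces pombe cells added to each sample, and this is the best replicated comparison.

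Total ORF counts were 1794997 to 7043273 per library without added cells, 1555271 to 5469230 with them, and 365088 to 5081617 in the gradient libraries, and every member had counts in all 116 libraries. Levels are in CPM, the count of a gene over the total S. cerevisiae ORF count of its library, times 1000000. The state markers went with the labels: 4 MATa genes summed to at least 235 CPM in every RNA-seq library and the MATalpha genes to at most 19.0 CPM, the deleted LEU2, MET17 and URA3 summed to at most 3.72 CPM, and pheromone-induced genes summed to 1575 to 4705 CPM with alpha factor, against 14.1 to 91.7 CPM in asynchronous cells. G1/S genes summed to 34.7 to 84.8 CPM in 5 of the 6 alpha factor libraries with added cells, but to 479.8 CPM in alpha factor T30 replicate 2, above the 231 to 462 CPM of asynchronous cells. Nocodazole cells had 169 to 483 CPM of mitosis genes, against 55.2 to 122 CPM with alpha factor. Asynchronous cells had 110 to 289.5 CPM, so their range overlapped that of nocodazole cells. At T0 alone, without added cells, nocodazole libraries had 412 to 483 CPM, against 283 and 289.5 CPM in asynchronous cells. Libraries of the same replicate number deviated together in the set with added cells, so counts from a fit with the replicate number as a block are given there beside the unblocked ones. In bulk samples fewer cells of a kind and less RNA per cell cannot be told apart.

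In growing asynchronous cells before stress these genes were expressed well above a typical gene, but far below ribosomal protein genes. Per kilobase of RefSeq gene length the 56 members had a median level of 138 CPM, against 44.2 CPM for all 5802 ORFs with a length and a count. The 76 genes of large subunit ribosomal proteins had a median of 871 CPM per kilobase. Introns were not taken out of these lengths, so levels of genes with introns are understated and the order of members could change. The lowest member was IPI1, a subunit of the Rix1 complex, at 29.8 CPM per kilobase. The highest by this length was NOP7, a core subunit of the Nop7-Erb1-Ytm1 complex (PeBoW in mammals), at 367 CPM per kilobase. The ribosomal-protein-like RLP7 at 357 and the GTPase NOG1 at 353 followed.

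Salt lowered nearly the whole set in asynchronous cells. Of 56 members 53 fell and none rose in edgeR's quasi-likelihood test with Benjamini-Hochberg adjustment over all 5744 genes tested (adjusted p under 0.05), where 19.6% of all genes fell and 22.2% rose. With the replicate block all 56 fell, against 28.6% of all genes. The median log2 change of the members was -2.21, against 0.05 over all genes tested, and it ran from -3.09 for NOP7 to -0.69 for TIF6. In 50 members every T30 library lay below every T0 library, which was so for 18.4% of ORFs. The 3 members that did not pass without the block were RRP14 (-1.93), NOP16 (-1.71) and SSF2 (-1.12).

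**Figure D1:**
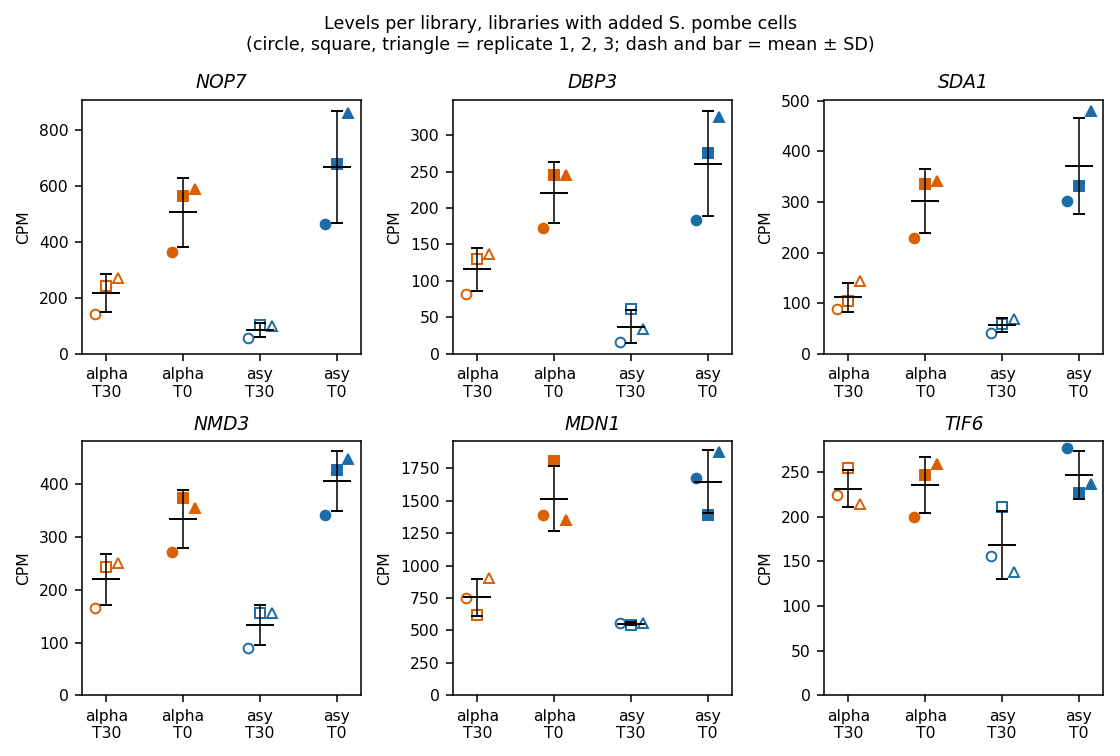
Levels (CPM, y axes from 0) of 6 members in each of the 12 libraries with added cells, by group on the x axes, with alpha factor in orange, asynchronous cells in blue, T30 open and T0 filled; dash and bar are the mean and SD of 3 libraries. In NOP7, DBP3, SDA1, NMD3 and MDN1 both states were lower at T30 than at T0 and the asynchronous T30 libraries are the lowest as a group, while the TIF6 libraries lie at 138 to 255 CPM at T30 and 200 to 277 CPM at T0.

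The Nop7 complex, needed for processing of the 27S precursor, held the largest fall. NOP7 (YGR103W) had 57.3, 102.5 and 99.0 CPM in the asynchronous T30 libraries, against 462, 678.5 and 860 CPM at T0 (replicates 1, 2 and 3 throughout). The groups were far apart, and the change was -3.09 ± 0.29 (log2, SE; edgeR adjusted p = 6.61e-06). ERB1 (YMR049C), which bridges the other subunits, had 55.97, 123.4 and 82.9 CPM at T30 and 332, 441 and 419 CPM at T0, a change of -2.32. All 3 members of the complex fell, with a median change of -2.62.

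RNA helicases remodel the precursor and its snoRNA contacts, and all 11 of them fell, with a median change of -1.85. DBP3 (YGL078C), a DEAD-box helicase of an early cleavage in ITS1, had 16.4, 60.7 and 34.1 CPM at T30, against 184, 275 and 324 CPM at T0, a change of -2.92 ± 0.38. DBP6 (YNR038W), another DEAD-box helicase of the earliest particles, had 68.7, 109 and 78.4 CPM at T30 and 127, 167 and 117 CPM at T0, the smallest helicase change at -0.83. It passed at an adjusted p of 0.00988 in edgeR and not without T0 replicate 2. DBP2 (YNL112W), which also acts on messenger RNA, had 60.2, 146 and 93.9 CPM at T30 and 498, 579 and 765 CPM at T0.

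The 3 genes of precursor rRNA methyltransferases and their partner Nip7 fell together, with a median of -2.47. NOP2 (YNL061W), a methyltransferase of 25S rRNA, had 30.8, 89.2 and 73.3 CPM at T30 and 281, 417 and 436 CPM at T0. SPB1 (YCL054W), the other methyltransferase, had 17.8, 72.6 and 82.3 CPM at T30, against 135, 246 and 426 CPM at T0. NIP7 (YPL211W) had tight groups of 16.2, 22.6 and 19.3 CPM at T30 and 112, 91.8 and 86.9 CPM at T0, a change of -2.47 ± 0.21.

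Of the 7 genes of Brix-domain proteins and their partners 6 fell, with a median of -2.63. RRS1 (YOR294W), which with Rpf2 brings in the 5S RNA particle, had 5.04, 23.7 and 15.4 CPM at T30, against 62.7, 103 and 124 CPM at T0, a change of -2.81 ± 0.43. BRX1 (YOL077C), a Brix-domain protein of the early particle, had 15.7, 56.8 and 35.4 CPM at T30 and 188, 241 and 235 CPM at T0. These groups did not overlap, unlike those of SSF2. SSF1 (YHR066W) and SSF2 (YDR312W) are near-identical copies that act redundantly, and how their shared reads were assigned is uncertain. SSF1 had 8.22, 34.6 and 33.4 CPM at T30 and 55.6, 117 and 175 CPM at T0 (change -2.32), while SSF2 had 18.8, 44.7 and 63.0 CPM at T30 and 41.5, 95.1 and 109 CPM at T0 (change -1.12, adjusted p = 0.0654 in edgeR, 8.92e-06 with the replicate block). SSF2 also passed when asynchronous T0 replicate 1 or T30 replicate 3 was left out. The share of SSF1 in the pair was 30.4 to 65.9% over the libraries with added cells.

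Among RNA-binding and scaffold factors, the largest role group, 12 of 14 fell, with a median of -2.15. NOP13 (YNL175C), an RNA-binding nucleolar protein, had 11.4, 32.6 and 43.7 CPM at T30, against 75.1, 175 and 211 CPM at T0. RRP15 (YPR143W), needed for 27S processing, had 13.8, 32.4 and 51.4 CPM at T30 and 44.1, 84.7 and 101 CPM at T0, and its fall of -1.41 (edgeR adjusted p = 0.0204) did not pass without T30 replicate 1, T0 replicate 2 or T0 replicate 3. The members that missed the test in this group varied more between replicates than they changed within one. RRP14 (YKL082C) had 5.83, 13.85 and 58.5 CPM at T30 and 27.7, 48.5 and 176 CPM at T0, so each replicate fell but the groups overlapped. NOP16 (YER002W) had 14.8, 17.6 and 53.4 CPM at T30, against 33.3, 65.3 and 146 CPM at T0.

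The genes of the remaining roles fell without exception. NOC2 (YOR206W), of the Noc proteins that move with the particle from nucleolus to nucleoplasm, had 17.8, 86.0 and 72.7 CPM at T30, against 211, 355 and 414 CPM at T0, and NOC3 (YLR002C) had 31.6, 58.8 and 59.1 CPM at T30 and 111, 158 and 197 CPM at T0. Among 4 GTPases NOG1 (YPL093W) had 32.1, 214 and 106 CPM at T30 and 532, 753 and 773 CPM at T0, while LSG1 (YGL099W), the cytoplasmic GTPase that releases Nmd3, had 65.2, 94.4 and 120 CPM at T30, against 158, 228 and 244 CPM at T0. Asynchronous T30 replicate 2 was the highest of its group in NOC2 and NOG1.

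Of the 6 genes of the Rix1 complex, the AAA ATPases and Sda1, all fell, with a median of -1.92. SDA1 (YGR245C), required for export of the particle, had 41.4, 59.7 and 69.4 CPM at T30, against 302, 332 and 480 CPM at T0, a change of -2.85 ± 0.24 (edgeR adjusted p = 2.84e-06). MDN1 (YLR106C) encodes the giant AAA ATPase that strips other factors from the particle. At 14733 bases it is the longest gene of the set, whose median RefSeq length is 1567.5 bases. It had 558, 541 and 561 CPM at T30 and 1675, 1392 and 1874 CPM at T0, a change of -1.72 ± 0.21.

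Both export factors fell. ARX1 (YDR101C), which contacts the nuclear pore, had 28.9, 102 and 40.5 CPM at T30 and 289, 326 and 304 CPM at T0, a change of -2.53. NMD3 (YHR170W), the adapter that recruits the export receptor Crm1, had 90.5, 155 and 155 CPM at T30, against 341, 427 and 448 CPM at T0, a change of -1.75 ± 0.21. RLP7 (YNL002C), a ribosomal-protein-like placeholder, had 22.3, 90.0 and 95.2 CPM at T30 and 214, 361 and 463 CPM at T0.

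TIF6 (YPR016C) stood at the other end. It encodes the factor that keeps the subunits from joining until it is released in the cytoplasm, and it had 156, 211 and 138 CPM at T30, against 277, 226 and 236 CPM at T0. The change was -0.69 ± 0.20 (edgeR adjusted p = 0.0152), and it did not pass without T0 replicate 1, T30 replicate 1 or T30 replicate 3.

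**Figure D2:**
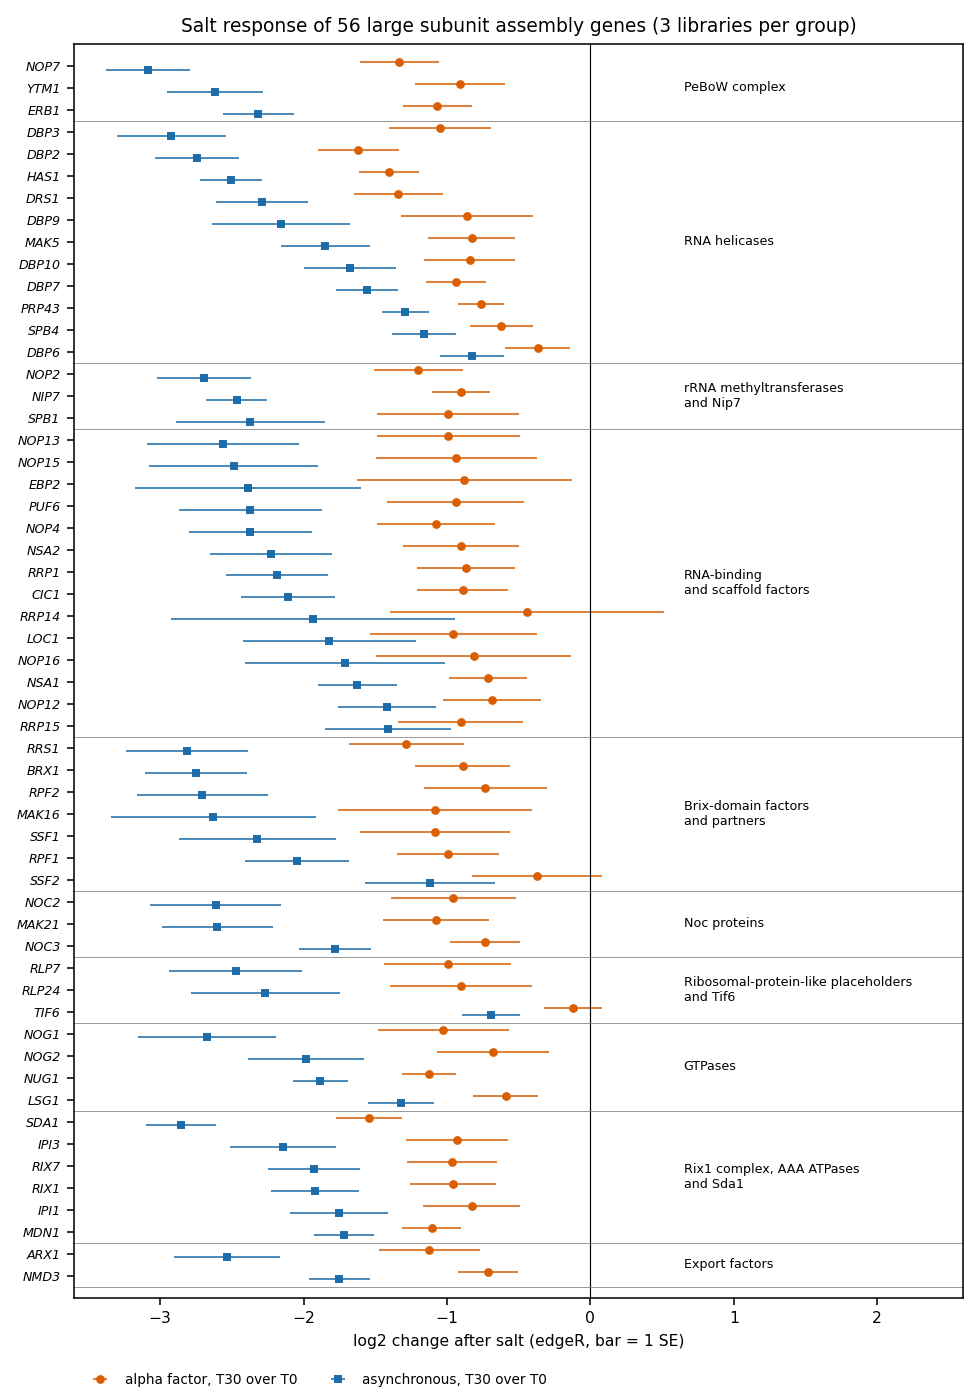
Log2 change after salt (x axis; points are edgeR estimates, bars 1 SE) of the 56 members (y axis, grouped by role) in alpha factor cells (orange circles) and asynchronous cells (blue squares), 3 libraries per group. All points lie below 0 and each asynchronous point lies left of its alpha factor point, with member medians of -0.93 in alpha factor and -2.21 in asynchronous cells.

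Other genes of ribosome production were read from lists that were also chosen with results of these data known. In asynchronous cells 31 of 38 other large subunit factors fell with a median change of -1.55, 48 of 50 small subunit processome genes fell with -2.01, and all 8 box C/D and H/ACA snoRNP proteins fell with -2.39. RNA polymerase I genes had 5 of 8 lower with -2.37, and 72 of 76 genes of large subunit ribosomal proteins were lower with -1.62. NSR1, a nucleolar protein of small subunit production, changed by -3.14 and the ribosomal protein gene RPL3 by -1.52. All 15 genes of a salt and heat stress list rose, with a median of 5.51. Of the 49 members with the PAC cluster annotation 47 fell, with a median of -2.23 over the 49, and of the 7 without it 6 fell, with a median of -1.75 over the 7. How genes were placed in that cluster was not examined, and stress responses may have been used, so this split is a description only.

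In alpha factor cells salt lowered these genes less. Of 56 members 12 fell (edgeR quasi-likelihood test, adjusted p under 0.05), against 3.62% of genes that fell, and with the replicate block 55 fell, all but TIF6, against 15.9% of genes. The median log2 change was -0.93, against 0.00 over all genes, and every member was below 0 (52 of them when counts were scaled by the added cells). In 25 members all T30 libraries were below all T0 libraries, as in 9.51% of ORFs. Over the pairs of equal replicate number the members' median was -1.03, -0.82 and -0.72 in alpha factor cells, against -2.61, -1.82 and -2.16 in asynchronous cells. Without alpha factor T0 replicate 2 the count of 12 was 5. Without T30 replicate 2, the library with the high G1/S genes, it was 8, and the part of those genes in the result was not tested.

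The 12 genes were DBP2, SDA1, HAS1, DRS1, NOP7, NOP2, NUG1, MDN1, ERB1, DBP7, NIP7 and PRP43. Of these 5 are helicases, 2 belong to the Nop7 complex, and none is an RNA-binding or Brix-domain factor without the block. DBP2 had 120, 130 and 171 CPM at T30 with alpha factor, against 324, 470 and 403 CPM at T0, the largest fall at -1.62 ± 0.28 (edgeR adjusted p = 0.00365). SDA1 had 87.7, 105 and 143 CPM at T30 and 229, 337 and 341 CPM at T0, a change of -1.55 ± 0.23. HAS1 (YMR290C), a helicase that acts on both subunits, had 91.4, 118 and 88.4 CPM at T30 and 227, 279 and 227 CPM at T0, a change of -1.40. In these 3 genes the groups did not overlap.

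DRS1 (YLL008W), another DEAD-box helicase, changed by -1.34 with alpha factor, in libraries of 97.6, 94.5 and 162 CPM at T30 and 200, 289.5 and 345 CPM at T0. It did not pass without T30 replicate 1 or 2 or T0 replicate 2 or 3. NOP7 had 141, 243 and 270 CPM at T30 and 363, 563 and 587 CPM at T0, a change of -1.33 ± 0.27 (edgeR adjusted p = 0.0102), which did not pass without T0 replicate 2. MDN1 had 749, 616 and 903 CPM at T30, against 1393, 1806 and 1351 CPM at T0, a change of -1.11 ± 0.21. NMD3 missed the threshold, with 165, 244 and 251 CPM at T30 and 270.5, 373 and 355 CPM at T0, though it passed without T0 replicate 1.

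TIF6 had 225, 255 and 214 CPM at T30 with alpha factor and 200, 246.5 and 259 CPM at T0. Its change of -0.12 ± 0.20 was within the spread of replicates. Of the SSF pair, SSF1 had 18.9, 50.8 and 65.7 CPM at T30, against 49.9, 95.7 and 114 CPM at T0, and SSF2 had 22.01, 60.6 and 71.7 CPM at T30 and 40.01, 64.3 and 77.1 CPM at T0.

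The difference between the states, alpha factor minus asynchronous, was above 0 for all 56 members, with a median of 1.24 on the log2 scale and -0.02 over all genes. It passed for 9 members as an interaction term in edgeR's quasi-likelihood test, against 3.73% of genes, and with the replicate block for 48 members, against 15.7%. The 9 were NIP7 (1.56, adjusted p = 0.00715), NOP7 (1.75, 0.0160), SDA1 (1.31, 0.0262), BRX1 (1.86, 0.0312), YTM1 (1.71, 0.0347), HAS1 (1.10, 0.0375), ERB1 (1.25, 0.0380), DBP3 (1.88, 0.0384) and NMD3 (1.04, 0.0469). Without the block all 3 genes of the Nop7 complex were among them, while none of the 14 RNA-binding factors was. With the block the RNA-binding factors passed too, all but LOC1, NOP16 and RRP15. The 8 that did not pass with the block either were DBP6, DBP7, LOC1, MDN1, NOP16, RRP15, SPB4 and TIF6. In the other lists the median difference was 0.71 for other large subunit factors, 1.14 for processome genes and 1.45 for snoRNP proteins. It was 1.38 for RNA polymerase I genes and 1.29 for large subunit ribosomal proteins, of which 41 of 76 were higher without the block. The stress list was at -2.34, with 12 of 15 lower.

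This count of 9 moved with single libraries. It was 21 without asynchronous T30 replicate 2 and 4 without asynchronous T30 replicate 1. It was 3 without asynchronous T0 replicate 2 or 3, asynchronous T30 replicate 3 or alpha factor T30 replicate 2 or 3, and 2 without alpha factor T0 replicate 1 or 3. NOP7 stayed past the threshold in each of the 12 fits that left out 1 library, while DBP3 and YTM1 did not pass in 9 of them and BRX1 in 7.

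Before salt no member passed between the 2 states. In edgeR none did (1 had an unadjusted p under 0.05 and DESeq2 called none), against 4.23% of genes called lower with alpha factor, although the members' median was -0.32 and 55 of 56 lay below 0. With the replicate block 12 members were lower with alpha factor, against 12.8% of genes. HAS1 had the smallest p, with 227, 279 and 227 CPM with alpha factor at T0, against 370, 393 and 335 CPM in asynchronous cells at T0, a difference of -0.55 ± 0.21 (edgeR adjusted p = 0.110).

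After salt the order was the other way round. At T30 the 56 members were all higher with alpha factor than in asynchronous cells, by a median of 0.87 (DBP6 and PRP43 were not when counts were scaled by the added cells), and 11 passed in edgeR, against 7.49% of genes. With the block 47 passed, against 20% of genes, and in 15 members every alpha factor library lay above every asynchronous one, as in 12% of ORFs. DBP3 had the largest difference, 82.1, 130 and 136 CPM with alpha factor against 16.4, 60.7 and 34.1 CPM in asynchronous cells, 1.68 ± 0.37 (adjusted p = 0.0122). Among the members that passed it was followed by BRX1 (1.41), NOP7 (1.39) and YTM1 (1.35). The count of 11 was 22 without asynchronous T30 replicate 2, 7 without asynchronous T30 replicate 1 or alpha factor T30 replicate 2, and 5 without asynchronous T30 replicate 3. BRX1 and YTM1 did not pass without alpha factor T30 replicate 2 or asynchronous T30 replicate 3, nor DBP3 without the last of these.

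Scaling by the added S. pombe cells in place of the TMM factors raised the median of all genes after salt by about as much in both states, to 0.51 in alpha factor and 0.60 in asynchronous cells, against 0.00 and 0.05 with TMM. The members' median was then -0.39 with alpha factor and -1.68 in asynchronous cells. In asynchronous cells 34 members fell, against 3.88% of genes, and in alpha factor cells none passed in edgeR (2 had an unadjusted p under 0.05), against 0.0348% of genes. With the block as well 5 fell with alpha factor, against 0.888% of genes. In alpha factor cells 52 members stayed below 0, and TIF6 (0.33), SSF2 (0.22), DBP6 (0.16) and RRP14 (0.12) were above it. The difference between the states stayed at 1.24 with all 56 above 0, but no member passed in edgeR without the block (8 had an unadjusted p under 0.05), against 0.122% of genes, and 23 passed with it, against 4% of genes. At T30 the difference between the states had a median of 0.70, with 2 members below 0, DBP6 (-0.12) and PRP43 (-0.02). No member passed in edgeR without the block (5 had an unadjusted p under 0.05), against 0.888% of genes, and 16 passed with it, against 3.8%.

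Replicates of the members were spread more widely than those of most genes. In asynchronous cells at T0 the highest library of a member was a median of 1.79 times the lowest, against 1.40 times for 5215 ORFs with enough counts, and 8 members were over 3 times, RRP14 (6.36) and EBP2 (4.75) most. EBP2 (YKL172W), a nucleolar partner of Rrs1, had 11.4, 58.4 and 100 CPM at T30, against 93.8, 251 and 445.5 CPM at T0, so replicate 1 was low at both times.

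The alpha factor response was measured again in libraries without added cells. Of 56 members 11 fell (edgeR quasi-likelihood test), against 2.62% of genes, with a median change of -0.92. DBP2 changed by -1.70, SDA1 by -1.49, NOP7 by -1.38 and DRS1 by -1.35. NOP7 had 198 CPM at T30 in replicate 1, 254 CPM in the replicate 2 library labelled 0.5N and 178 CPM in that labelled 0.7N, against 494 and 544 CPM at T0. These libraries lay below the T0 pair for 53 members, as for 21.9% of ORFs. The count was 1 without T0 replicate 1 or T0 replicate 2, 2 without the 0.7N library and 3 without T30 replicate 1. NOP7 and DRS1 did not pass in any of these 4 fits, DBP2 did not pass without T0 replicate 1, and SDA1 did not pass without T0 replicate 2.

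In nocodazole cells salt lowered nearly the whole set. Of 56 members 54 fell, against 16.8% of genes (edgeR quasi-likelihood test), with a median of -1.93, and SSF2 (-0.99) and LOC1 (-0.87) did not pass. NOP7 had 26.6 CPM in T30 replicate 1, 76.0 CPM in replicate 2 at 0.5N and 40.7 CPM at 0.7N, against 420 and 348 CPM at T0, a change of -3.03 ± 0.34 (adjusted p = 1.04e-05). DBP2 had 61.8, 117 and 64.1 CPM in the same libraries, against 650 and 556 CPM at T0, a change of -2.92. DRS1 (-2.75) and ARX1 (-2.62) followed. TIF6 had 114, 133 and 116 CPM at T30 and 194 and 197 CPM at T0, a change of -0.73 ± 0.26 (adjusted p = 0.0435).

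All 56 members had a more negative response in nocodazole than in alpha factor cells, by a median of -1.04. None passed the interaction test in edgeR, against 0.583% of genes called lower (27 members had an unadjusted p under 0.05, and DESeq2 called 3), and NOP7 came nearest with -1.65 ± 0.47 (adjusted p = 0.0800). The count of 0 moved with a single library: 41 members passed without the nocodazole T30 library labelled 0.5N, NOP7 among them, against 7.71% of genes. Without both libraries of that label 34 passed, against 4.8% of genes, and without any other single library none did. Before salt no member differed between nocodazole and alpha factor cells in edgeR (4 at an unadjusted p under 0.05, none in DESeq2), against 4.85% of genes.

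After 3.5 h in nocodazole 51 members fell with salt, against 14.7% of genes, with a median of -1.77. With the replicate block 53 fell, against 19.4% of genes. NOP7 had 25.2 and 56.7 CPM at T30, against 260 and 312 CPM at T0, a change of -2.69 ± 0.39. TIF6 had 198 and 147 CPM at T30 and 185 and 200 CPM at T0, a change of 0.03 ± 0.29. DBP3 (-2.57), YTM1 (-2.45) and SDA1 (-2.42) were next to NOP7. Without T30 replicate 1 the count was 30, and DBP3 did not pass. G1/S genes summed to 177 to 262 CPM in these libraries, against 28.0 to 96.1 CPM after 2 h; the part of this in the result was not tested. No member's salt response differed between 3.5 h and 2 h in edgeR (0 had an unadjusted p under 0.05, and DESeq2 called none), where 0% of genes were lower, nor did its T0 level (1 under 0.05, none in DESeq2), where 0.0171% of genes were lower.

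With cycloheximide at 0.1, 55 of 56 members fell with salt, against 17.4% of genes, with a median of -1.82, and YTM1 (-1.24) did not pass. With the replicate block all 56 fell, against 22.1% of genes. NOG1 had 96.7 and 96.0 CPM at T30, against 740 and 756 CPM at T0, the largest fall at -3.05 ± 0.58 (edgeR adjusted p = 8.36e-04). DBP3 had 32.7 and 37.2 CPM at T30 and 223 and 258 CPM at T0, a change of -2.87. RRS1 (-2.80) and SPB1 (-2.69) followed. NOP7, the member with the largest fall in asynchronous and nocodazole cells, had 155 and 149 CPM at T30, against 475 and 603 CPM at T0, a change of -1.91.

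Heat shock lowered the set in both arrested states. In nocodazole cells at T10, 54 of 56 members fell, against 16.8% of genes (edgeR quasi-likelihood test), with a median of -3.42, and in alpha factor cells 50 fell, against 8.24% of genes, with a median of -2.03. BRX1 had 8.89 CPM in nocodazole T10 replicate 1, 9.81 CPM in replicate 2 at 33c and 3.996 CPM at 37c, against 238 and 212 CPM at T0, a change of -4.84 ± 0.31 (adjusted p = 1.19e-05). RIX1 (YHR197W), which names the Rix1 complex of ITS2 removal, had 4.24, 4.53 and 2.82 CPM in these libraries and 114 and 96.0 CPM at T0, a change of -4.69. DBP3 (-4.58) and MAK16 (-4.42), a partner of Rpf1, were next. RRP14 and LOC1 did not pass.

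In alpha factor cells RPF1 (YHR088W), a Brix-domain protein, had the largest heat change at -3.06 ± 0.70 (edgeR adjusted p = 0.0164). Its libraries were uneven, with 4.54 CPM in T10 replicate 1, 9.86 CPM at 33c and 5.58 CPM at 37c, against 96.0 and 21.99 CPM at T0, and it did not pass without T0 replicate 1, T10 replicate 1 or the 37c library. NOP13 (-2.72), DBP3 (-2.65) and NOP4 (-2.62) followed, and NOP4 did not pass without T0 replicate 1. Without that library the count of 50 was 31. The members that missed the threshold were LOC1 (-2.08), RRP14 (-1.85), NOG2 (-0.92), MDN1 (-0.87), TIF6 (-0.72) and DBP2 (-0.23). DBP2 had 186 CPM in T10 replicate 1, 283 CPM at 33c and 133 CPM at 37c, against 166 and 312 CPM at T0, so its T0 libraries enclosed most of its T10 values.

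The heat response was more negative in nocodazole than in alpha factor cells by a median of -1.27 over the members, and 8 passed the interaction test in edgeR, against 0.58% of genes. They were RIX1 (-2.74), BRX1 (-2.62), NOG2 (-2.23), IPI3 (-2.17), NOG1 (-2.17), NIP7 (-1.82), YTM1 (-1.82) and RIX7 (-1.77). RIX1 and IPI3 belong to the Rix1 complex and RIX7 is an AAA ATPase of the nucleolus. RIX1 had 18.7, 27.0 and 13.6 CPM in the alpha factor T10 libraries and 90.6 and 68.2 CPM at T0, several times the 2.82 to 4.53 CPM of nocodazole cells at T10. The reads of NOG2 overlap the snoRNA gene SNR191 within it on the same strand, so its count is uncertain.

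The count of 8 moved by over 1.5 times with 9 of the 10 libraries. It was 0 without T0 replicate 1 or 2 of either state, without alpha factor T10 replicate 1 or without the nocodazole 37c library, 1 without the alpha factor 33c library, and 3 without nocodazole T10 replicate 1 or the alpha factor 37c library. Without both libraries labelled 33c it was also 0. Over the 10 fits that left out 1 library RIX1 did not pass in 7, BRX1 and NOG2 in 8 and IPI3 in any. Without the nocodazole 33c library the count was 7.

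**Figure D3:**
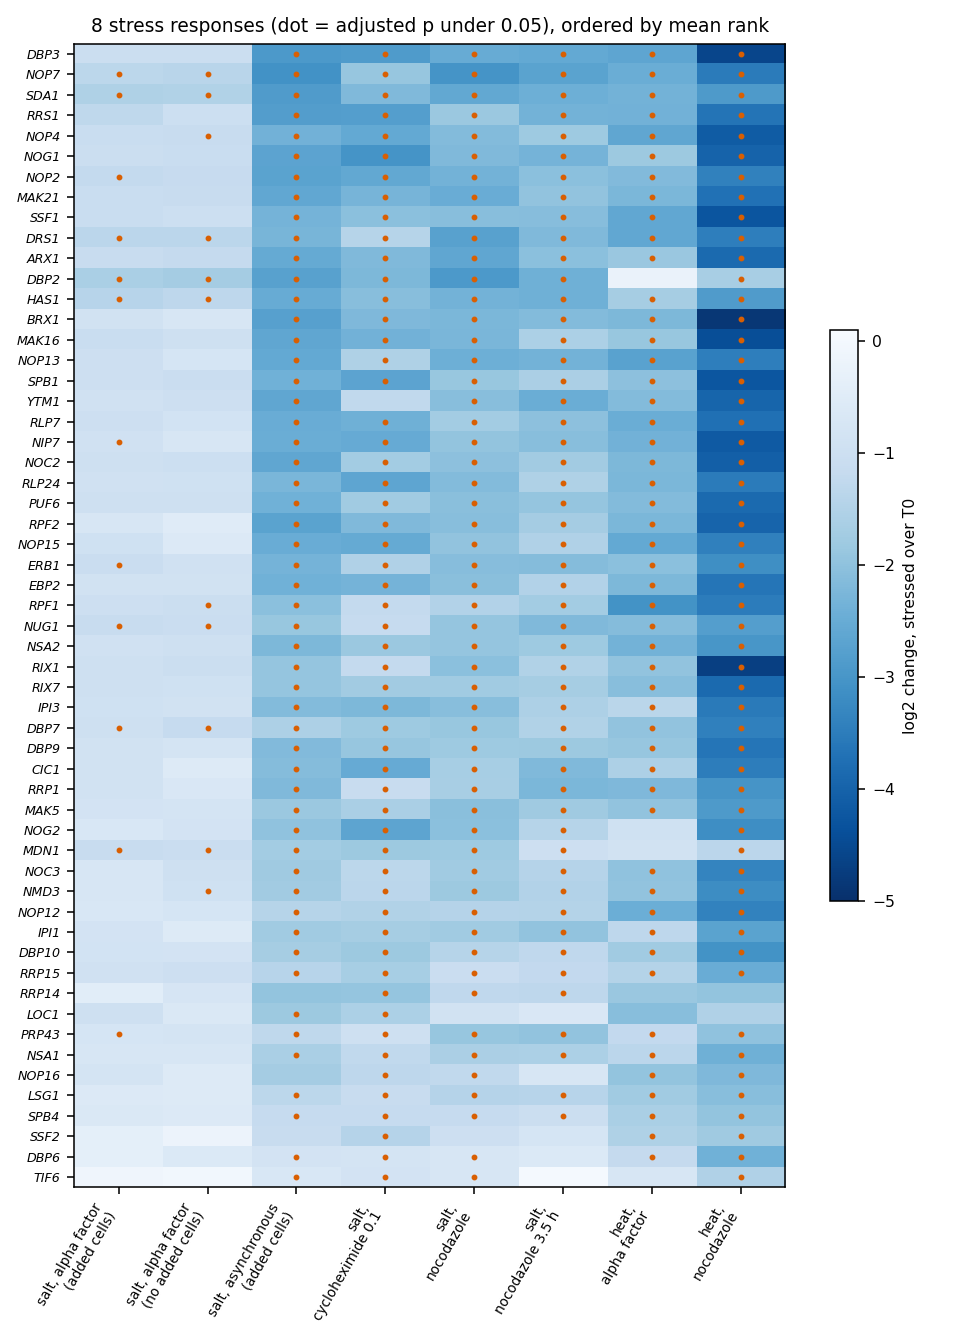
Log2 change, stressed over T0 (colour), of the 56 members (y axis, ordered by mean rank of the fall) in 8 stress responses that share no library (x axis); orange dots mark an edgeR adjusted p under 0.05. DBP3, NOP7 and SDA1 head the order and TIF6 closes it, and the alpha factor salt columns are the palest.

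Across 8 responses that share no library the order of the members was in part the same. Ranked by the size of the fall, DBP3 had a mean rank of 6.1 of 56, NOP7 8.25, SDA1 11.1 and RRS1 12.8. At the other end TIF6 had a mean rank of 55.4 and was among the 10 smallest falls in 8 of 8 responses, followed by DBP6 (52.8), SSF2 (50.9) and SPB4 (49.8). DBP2 covered the whole range, from the largest fall in a response to the smallest. As a description over 56 genes, the Pearson correlation of the changes over the 28 pairs of responses had a median of 0.53. It ran from 0.17, between salt with alpha factor without added cells and heat with alpha factor, to 0.86, between both sets of salt with alpha factor.

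Calls in the 8 responses were counted for each member. NOP7, SDA1, DRS1, HAS1, NUG1 and DBP7 were lower in all 8, as were 0.533% of the 5624 genes tested in each. Of the members 15 were lower in at least 7 responses, against 1.9% of genes, and 48 in at least 6, against 5.8%. LOC1, an RNA-binding protein with the fewest calls, was lower in 2.

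**Figure D4:**
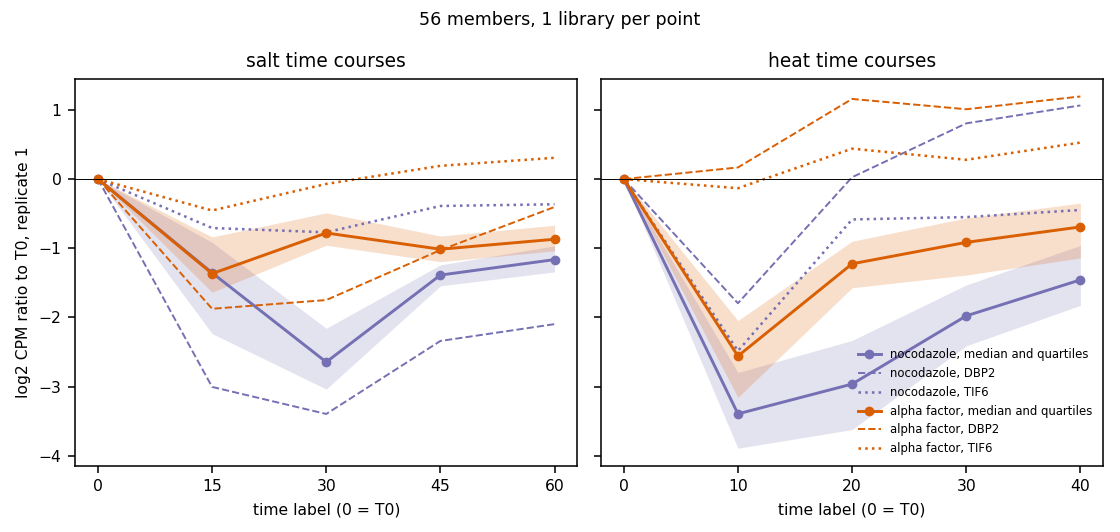
Log2 ratio of CPM to T0 (y axis) against the time label (x axis) in the replicate 1 salt course (left) and heat course (right), 1 library per point; lines and bands are the median and quartiles of 56 members in nocodazole (purple) and alpha factor (orange), dashes DBP2, dots TIF6. The alpha factor heat median climbs back to -0.69 at T40 while DBP2 lies above 0 throughout the alpha factor heat course.

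The replicate 1 time courses had 1 library per point and give no test. With salt in nocodazole cells the members' median was -1.36 at T15, -2.64 at T30, -1.39 at T45 and -1.16 at T60, and 51 of 56 members were lowest at T30. With alpha factor it was -1.37, -0.78, -1.01 and -0.87 at the same times, and 38 members were lowest at T15, so the 2 states had nearly the same median at T15 and parted at T30. At T30 54 members were at least 2-fold lower in nocodazole, against 15.8% of genes, and 11 with alpha factor, against 3.2% of genes.

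In the heat courses the members' median was lowest at T10, the first time sampled, and nearer to T0 at each later time. In nocodazole cells the median was -3.39 at T10, -2.96 at T20, -1.98 at T30 and -1.46 at T40, and in alpha factor cells -2.56, -1.22, -0.91 and -0.69. With alpha factor 55 members were lowest at T10, and in nocodazole 36 were lowest at T10 and 20 at T20. At T40 the level was still below T0 for 55 members in nocodazole and 50 with alpha factor. The member above T0 in nocodazole was DBP2. With alpha factor the 6 above it, named after their values were seen, were DBP2, IPI3 (0.74), NOG2 (0.59), TIF6 (0.53), ARX1 (0.17) and DBP7 (0.12). DBP2 was at -1.79, 0.03, 0.81 and 1.06 in nocodazole and 0.17, 1.16, 1.01 and 1.19 with alpha factor, while under salt it stayed below 0 at all 4 times in both states. Its T0 level in the replicate 1 heat courses, 200 CPM in nocodazole and 166 CPM with alpha factor, was lower than the 323 and 312 CPM of replicate 2.

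Stress dose was labelled only in replicate 2, with 1 library per dose. At 0.7N against 0.5N salt, 49 members were lower in nocodazole cells, with a median difference of -0.90 and 25 at least 2-fold lower (4.84% of genes), and 55 were lower with alpha factor, with a median of -0.39. Against T0 the medians in nocodazole cells were -2.10 at 0.7N and -1.13 at 0.5N, and with alpha factor -1.18 at 0.7N and -0.75 at 0.5N. At 37c against 33c heat, the median difference was -0.46 in nocodazole cells, with 42 members lower, and -0.54 with alpha factor, with 54 lower. Within each dose the alpha factor median was the less negative.

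States with a single pair of libraries gave values only. In asynchronous cells without added cells the members' median after salt was -2.98, with 55 at least 2-fold lower, against 15.8% of genes. After heat at T10 it was -3.93 and all 56 were at least 2-fold lower, against 20.3% of genes, from -6.37 in DBP3, which had 3.75 CPM at T10 and 310.0 CPM at T0, to -1.45 in MDN1. With cycloheximide labelled 0.2 the salt median was -1.57 without added cells, with 47 members at least 2-fold lower (11.9% of genes), and -0.998 with added cells, with 28 (12%). RRS1 fell to 4.21 CPM at T30 in the 0.2 pair with added cells, against 64.5 CPM at T0.

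Polysome gradients separated RNA by the number of ribosomes it carries, in 9 fractions from free particles (RNP) through 40S, 60S and 80S to messages with 2 (2R) up to 6 or more ribosomes (6R>). Counts were scaled within a gradient by the added S. pombe counts to give the share of each gene's RNA in each fraction. This assumes equal added S. pombe RNA in each fraction, which was not tested. S. pombe made up 5.70 to 49.4% of the counts over the gradient libraries. On this scale most of the members' RNA lay outside the polysome fractions in all 5 gradients. Their median share in 2R to 6R> was 25.0% with alpha factor at T0, against 50.8% of all ORF counts. In asynchronous cells it was 17.02 and 11.3% at T30 in replicates 1 and 2, against 47.1 and 34.4% of all counts, and 19.2 and 13.4% at T0, against 40.6 and 37.9%. The RNP fraction alone held a median of 48.3 and 61.7% of their RNA at T30 and 50.1 and 49.1% at T0 in asynchronous cells. The shares of all counts are pooled over genes, so abundant messages weigh most in them, and they are not those of a typical gene.

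**Figure D5:**
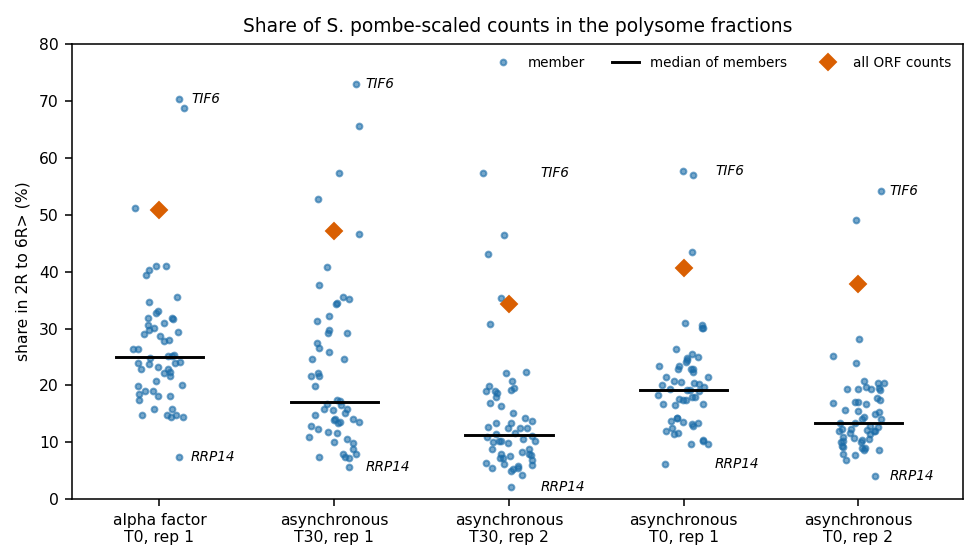
Share (y axis, percent) of S. pombe-scaled counts in the polysome fractions 2R to 6R> for each member (blue points, spread sideways for view), their median (black line) and all ORF counts together (orange diamond) in 5 gradients (x axis), 1 gradient per column. The diamond is above the members' median in each gradient, TIF6 is the highest member and RRP14 the lowest.

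TIF6 had the highest polysome share in all 5 gradients, with 70.3% of its RNA in 2R to 6R> with alpha factor at T0, 72.9 and 57.3% in asynchronous cells at T30 and 57.7 and 54.1% at T0. RRP14 was the lowest in all 5, with 7.41% with alpha factor, 5.65 and 2.16% at T30 and 6.13 and 4.15% at T0 in asynchronous cells. MDN1, the longest ORF, had 10.3% of its RNA in 6R> with alpha factor, 8.79 and 4.77% at T30 and 7.14 and 4.71% at T0, against member medians of 15.7% with alpha factor, 10.6 and 4.13% at T30 and 9.50 and 4.61% at T0. So in the 6R> fraction alone the longest message was below the members' median in 3 of these gradients and slightly above it in both of asynchronous replicate 2. Over 2R to 6R> together MDN1 had 26.35% with alpha factor, 24.6 and 15.1% at T30 and 25.1 and 19.4% at T0. That was above the members' median share in each gradient.

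No change of loading with salt passed for a member. The ratio of polysome to lighter fractions changed between T0 and T30 by a median of -0.02 over the members, against 0.34 over 4714 genes, and none passed in limma (10 had an unadjusted p under 0.05), where 0.148% of genes were lower. RRS1 had the smallest p of those that were lower, with -1.39 ± 0.43 (adjusted p = 0.0916). With the T30 gradient of replicate 2 left out, 4 members were higher, against 7.62% of genes. For the 6R> fraction against the input none of the members passed before salt (1 had an unadjusted p under 0.05) or in its change with salt (25 had one), and DESeq2 called none in either; the background was 0.0187% and 0%.

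The T30 inputs of the gradients differed from each other. After salt 5 members were lower in them, against 8.62% of genes: NOG1, DBP2, NOG2, TIF6 and MDN1. NOP7 had 52.5 CPM in T30 input replicate 1 and 349 CPM in T30 input replicate 2, against 161 and 343 CPM at T0, so it was low in 1 T30 input only. The 15 stress genes summed to 52110 and 40840 CPM in the T30 inputs and 960 and 1136 CPM in the T0 inputs, so both T30 inputs were high in them. The summed share of the 56 members was 0.198 and 0.908% in the T30 inputs and 0.720 and 1.04% in the T0 inputs. Leaving out an input leaves 1 library in its group, which is then assumed to vary like the other groups. Under that assumption the members' count was 46 without T30 input replicate 2 (10.3% of genes), 0 without T0 input replicate 1 (4.11%), and 3 without either of the others. NOG1, DBP2, NOG2 and TIF6 did not pass without T0 input replicate 1, nor NOG2 without T30 input replicate 1 or T0 input replicate 2. In the 6R> fraction itself NOP7 had 46.9 and 26.2 CPM at T30, against 397 and 247 CPM at T0, and SDA1 had 24.1 and 26.2 CPM, against 147 and 143 CPM. MDN1 had 91.0 and 156 CPM there at T30 and 519 and 547 CPM at T0, while TIF6 had 297 and 298 CPM at T30 and 352 and 343 CPM at T0. SSF1 had the most negative change against the input, -3.601 ± 1.18 (edgeR adjusted p = 0.988), with 8.04 and 2.06 CPM in 6R> at T30, against 96.3 and 54.7 CPM at T0, and it passed without T30 input replicate 1, when 25 members did, against 1.35% of genes.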

How the data were processed

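RNA-seq libraries came from rRNA-depleted hot-phenol RNA (Script-seq V2 kit) and gradient libraries from the TruSeq Stranded kit, per the labels' protocols. Reads were trimmed with Trimmomatic 0.32, aligned with Bowtie2 (version not given) and counted with HTSeq 0.6.1, per the submitters' processing notes; neither a build nor whether counting used strand is named in these sources. The authors deposited raw counts per ORF in 3 tables, and 70 count columns that match no sample used here were left out. An unnamed row held 0.00248 to 0.00545% of the counts in the libraries with added S. pombe cells and was left out. Genes kept by filterByExpr were tested with the quasi-likelihood method of edgeR 4.0.16 (R 4.3.3) on TMM-scaled counts, at a threshold of adjusted p under 0.05 (Benjamini-Hochberg over all genes tested). 1 fit covered the libraries with added cells, 1 the other salt libraries, 1 the heat libraries and 1 the gradient inputs and 6R> fractions, each over all its groups. The replicate 2 libraries of different salt or heat dose entered as replicates of 1 group and share a T0 library. Log2 polysome ratios were tested in limma 3.58.1 (genes with at least 10 CPM, an offset of 1 read). DESeq2 1.42.0 was an alternative test. The first comparison of each edgeR fit and the polysome ratio were tested on simulated data. The other comparisons, the replicate block and the S. pombe scaling were not simulated. Where leaving out a library left a group with 1, that library was assumed to vary like the other groups. The series design states biological replicates, with no further detail. Replicate numbers were taken to pair the libraries with added cells. Same-numbered deviations there correlated at 0.313 to 0.706 over 18 pairs, against -0.652 to 0.184 for other pairs. In cycloheximide 0.1 and nocodazole 3.5 h, 4 groups of 2 libraries, they correlated at 0.201 to 0.654 over 12 pairs and were taken likewise. With 2 libraries in a group the deviations mirror each other. The 12 values are therefore not independent, other pairs hold the same values with opposite sign, and this evidence is weaker. Elsewhere the numbers were not treated as pairs. Copies of 1 library were looked for in 52 pairs and none was found (lowest chi-square per degree of freedom 1.90). Members, lists and named genes (largest and smallest changes by role in asynchronous cells, up to 4 called members elsewhere, and 7 members throughout) were chosen with earlier results of these data known. Gene lengths, with introns not taken out, and symbols came from RefSeq R64. Intervals and tests cover these libraries only, and depth limits the members with the lowest counts, down to 2 counts in a gradient library.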

Additional observations from a re-analysis of the deposited data

Results flagged for a closer look

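The salt response of 9 members differed between alpha factor and asynchronous cells by the interaction test of edgeR's quasi-likelihood fit with Benjamini-Hochberg adjustment. They were called higher, as were 3.73% of all genes tested. The difference, alpha factor minus asynchronous, was 1.88 for DBP3, 1.86 for BRX1, 1.75 for NOP7, 1.71 for YTM1, 1.56 for NIP7, 1.31 for SDA1, 1.25 for ERB1, 1.10 for HAS1 and 1.04 for NMD3 on the log2 scale. In each of them the fall was smaller with alpha factor. All 56 members lay above 0 in this difference. With the replicate block 48 members passed, against 15.7% of genes, and with S. pombe counts as library sizes and no block none did. Leaving out 1 library moved the count of 9 to between 2 and 21. The heat response of 8 members differed between nocodazole and alpha factor cells by the interaction test without the block, against 0.58% of genes called lower. The difference, nocodazole minus alpha factor, was -2.74 for RIX1, -2.62 for BRX1, -2.23 for NOG2, -2.17 for IPI3, -2.17 for NOG1, -1.82 for NIP7, -1.82 for YTM1 and -1.77 for RIX7, so the fall was larger in nocodazole cells. BRX1, NIP7 and YTM1 were in both groups. The heat groups hold libraries of different temperature labels, and without those labelled 33c no member passed in the heat difference.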

How the results depend on the processing

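Over all settings, 410 counts of called members kept within 1.5 times of the reported count and 36 were higher and 40 lower; 231 medians moved by less than the spread between libraries and 12 by more; 822 values of single members kept their direction and side of the threshold, 136 no longer passed, 21 newly passed and 4 turned. The cause of the others was not tested except where fewer libraries were fitted. Percentages after a count are of all genes called in that direction under the same setting. In DESeq2 the members lower after salt with alpha factor were 21 (5.66%) with added cells and 17 (4.15%) without, those higher in the difference between alpha factor and asynchronous cells 17 (6.67%), those higher at T30 20 (10%), those lower in the salt difference between nocodazole and alpha factor 3 (1.83%), in the heat difference 24 (2.23%) and in the inputs 8 (9.78%). With the replicate block the numbers were 55 (15.9%) and 22 (4.64%) for salt with alpha factor, 48 (15.7%) for the difference, 12 (12.8%) lower at T0, 47 (20%) higher at T30, 2 (2.55%) and 19 (1.99%) for the nocodazole minus alpha factor differences of salt and heat, and 9 (1.57%) lower and 4 (19.7%) higher for the polysome ratio. Same-numbered deviations correlated at -0.442 to 0.544 in the other salt groups, -0.512 to 0.798 in the heat groups and -0.136 to 0.367 in the gradient libraries, so the numbers do not pair those. With S. pombe counts as library sizes they were 34 (3.88%) for salt in asynchronous cells and 0 for salt with alpha factor (0.0348%), the difference (0.122%), T30 (0.888%) and the inputs (0.673%), and with the block added after seeing the data 5 (0.888%), 23 (4%), 3 (6.96%) lower at T0 and 0 (1.03%) in the inputs. TIF6 and SSF2 turned to 0.33 and 0.22 with alpha factor under this scaling, and to 0.33 and 0.0596 with the block. The share of higher calls among all called genes was 84.4% under S. pombe scaling against 53.2% in asynchronous cells, 99.3% against 60.2% with alpha factor, 10.3% against 42.4% in the difference, 46.8% against 59.97% at T30 and 88.9% against 53.2% in the inputs. With only the libraries compared, members lower with alpha factor were 19 (2.68%) with added cells and 48 (9.7%) without, higher at T30 3 (2.97%), lower in the nocodazole minus alpha factor salt difference 1 (1.1%), at T0 8 (14%) and between 3.5 h and 2 h 10 (3.88%), and in the inputs 2 (7.05%). Without the 0.5N libraries alpha factor had 32 (4.94%) and the salt difference 34 (4.8%); without the 33c libraries the heat difference had 0 (0.0177%). Without a filter on low counts the inputs had 19 (8.83%) and the 6R> change 1 (0.0786%); scaling the polysome ratio by S. cerevisiae counts gave 7 lower (3.56%) and 5 higher (30%). Leaving out 1 library gave 49 to 55 (16.4 to 19.7%) for salt in asynchronous cells, 5 to 12 (0.964 to 2.6%) with alpha factor and 1 to 10 (0.497 to 2.35%) without added cells, 2 to 21 (1.46 to 6.49%) for the difference, 5 to 22 (3.65 to 9.31%) at T30, 49 to 53 (9.32 to 19.3%) for nocodazole, 30 to 52 (7.38 to 17.6%) for 3.5 h, 42 to 51 (10.4 to 14.4%) for cycloheximide, 0 to 41 (0.0171 to 7.71%) for the salt difference, 31 to 50 (2.76 to 7.38%) for heat with alpha factor, 52 to 55 (11.3 to 18%) in nocodazole, 0 to 7 (0 to 0.917%) for their difference, 0 to 46 (4.11 to 10.3%) for the inputs, 0 to 25 (0 to 1.35%) for the 6R> change and 0 to 4 (0 to 7.62%) higher for the polysome ratio.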

Other observations

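A library labelled t0′ was listed beside T0 in the replicate 1 courses of both arrested states. The labels do not say what t0′ is, so its libraries entered no test. Pheromone-induced genes summed to 43.9 and 35.0 CPM in the alpha factor t0′ libraries, against 3811 and 3211 CPM at T0. G1/S genes summed to 211 to 239 CPM in the t0′ libraries of both states, against 29.4 to 54.4 CPM at T0. In these markers t0′ was nearer to asynchronous cells, and whether it was taken before arrest was not tested. The members were lower at T0 than at t0′ by a median of -0.74 in the alpha factor salt course and -0.86 in the alpha factor heat course. All 56 were lower in each. The median difference was -0.59 in the nocodazole salt course, with all 56 lower, and -0.16 in the nocodazole heat course, with 34 lower. NOP7 had 494 CPM at T0 with alpha factor in the salt course and 829 CPM at t0′. In the nocodazole salt course it had 420 CPM at T0 and 731 CPM at t0′. Of the 56 members 8 (14.3%) lie next to another gene of the assembly lists in the RefSeq gene order, against 5.08% of 5861 genes outside these lists.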
